A study of Xenopus laevis with 3 samples.

Results

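Heads of Xenopus laevis tadpoles in which the protein kinase MLTK had been knocked down were set against heads of CoMO-injected tadpoles of the same stage, gene by gene and by gene group. The members are the xMLTK-MO array and the CoMO array, 2 of the 3 arrays of the series. The xMLTK-MO group received the morpholino xMLTK-MO, an antisense oligonucleotide against MLTK, and the CoMO group received CoMO, a name the labels do not spell out and which is read here as the control morpholino. The remaining group, given xSox6-MO against the transcription factor Sox6, is quoted beside these values. All groups got 10 ng of morpholino per cell into the animal side of each cell of the early embryo and were raised at one temperature. Heads were cut off 72 hours after fertilisation, when tadpoles had reached about stage 41 and their head cartilages were forming. The number of heads per pool, the clutch, the strain and the uptake of morpholino by each tissue are not given in the sources used here.

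Each group had 1 array, so the differences below have no replicate check, and no test was run. The values are probe-set intensities of a microarray, and a difference is the log2 intensity of xMLTK-MO minus that of CoMO. X. laevis has 2 subgenomes, and the paired copies of a gene, its homeologs, carry the endings .L and .S. The annotated probe sets gave 11303 genes with homeologs apart and 9273 with homeologs averaged, of which 9606 and 7891 had a mean level above the highest negative control probe sets and were counted. Single genes are given by homeolog, and gene groups are counted with homeologs averaged. The smaller groups by role within lists were put together after the values were seen. The 2 target mRNAs could not be followed, since 0 annotated probe sets carried map3k20, the current symbol of MLTK, or sox6.

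MLTK, also called ZAK, is a MAP kinase kinase kinase, the entry tier of a phosphorylation cascade that runs through MAP kinase kinases to the stress kinases JNK and p38. Its long form also binds ribosomes and starts the ribotoxic stress response when ribosomes stall or collide. JNK and p38 act on transcription factors of the AP-1 family, which control genes of growth, stress and matrix turnover. In Xenopus the kinase was studied here for its part in forming the cartilages of the head.

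Most genes differed little between the arrays. With homeologs averaged, the median difference was -0.018, the middle 50% of genes lay between -0.19 and 0.16, and 47.4% were higher and 52.6% lower in xMLTK-MO. A margin of 1.5-fold was reached by 4.35% of genes upward and 3.89% downward, and one of 2-fold by 1.5% upward and 0.748% downward. With homeologs apart, the 1.5-fold shares were 4.64% and 4.21%, and 2-fold was passed by 148 genes upward (1.54%) and 80 downward (0.833%), so that 64.9% of the genes past 2-fold were higher. These shares are the background for every count below. Where a symbol had 2 probe sets, their differences lay a median of 0.15 apart, and 90% of the 1391 such pairs lay within 0.44. The 1646 homeolog pairs lay a median of 0.16 apart. Of 36 pairs whose .L copy was at least 2-fold higher or lower, 34 had the .S copy on the same side of 0 and 24 had it at least 1.5-fold that way. Probe sets of one symbol may share probes with the other homeolog.

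**Figure D1:**
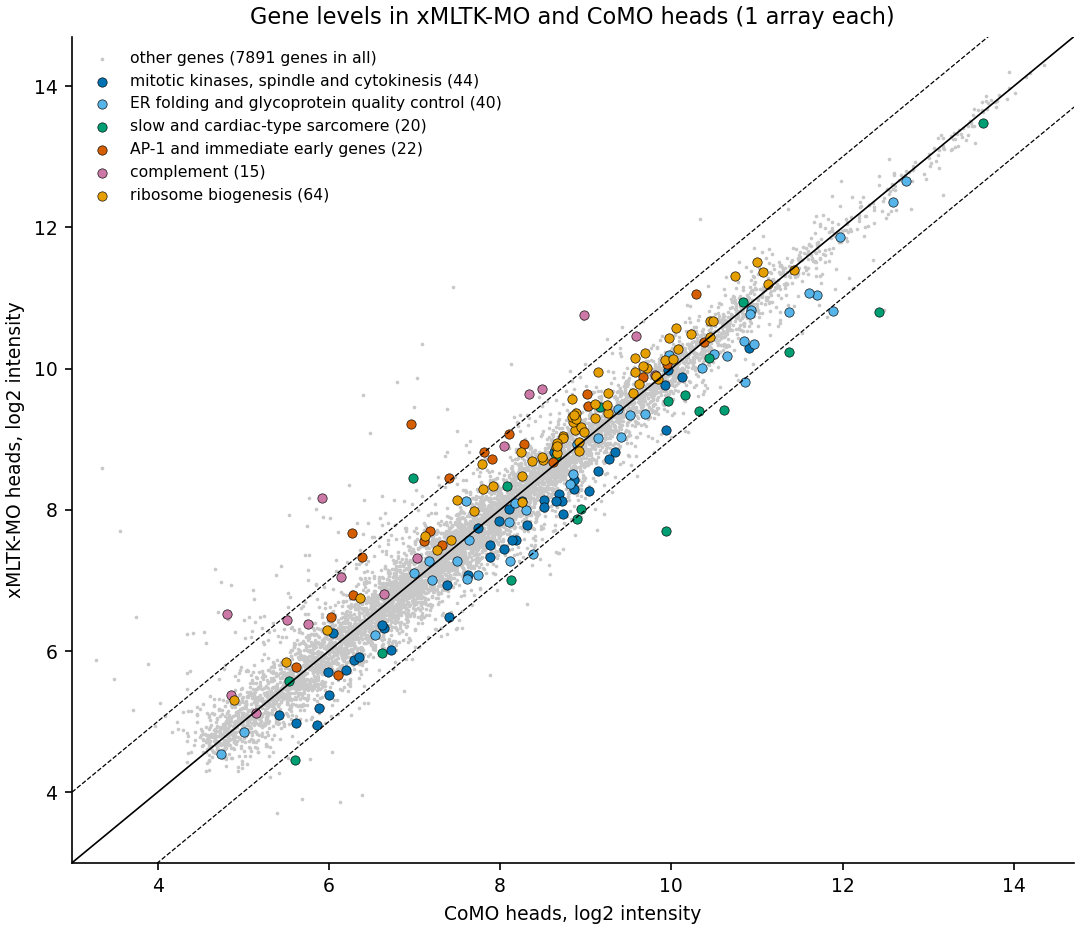
Levels of the 7891 genes above the level filter, homeologs averaged, as log2 intensity in CoMO heads (horizontal) and xMLTK-MO heads (vertical). Each point is a gene, the solid line marks equal levels and the dashed lines 2-fold differences; mitotic genes lie below the solid line with few exceptions, and ribosome biogenesis genes lie above it with few exceptions.

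The head pieces were checked against marker lists. Of 31 measured head markers (eye, forebrain, pituitary and arch genes), the negative controls were exceeded by 22 in xMLTK-MO and 23 in CoMO, and their summed intensity was 6650.2 in xMLTK-MO and 7362 in CoMO. Of 28 trunk and posterior markers, they were exceeded by 8 in xMLTK-MO, 9 in xSox6-MO and 7 in CoMO, with summed intensities of 802 in xMLTK-MO, 636 in xSox6-MO and 546 in CoMO. The posterior Hox genes, the caudal genes cdx1, cdx2 and cdx4, the notochord gene tbxt and the presomitic genes tbx6 and msgn1 did not pass the level filter. The glucose transporter gene slc5a2.L, a kidney tubule marker, was at 236 in xMLTK-MO, 119 in xSox6-MO and 64.9 in CoMO, 3.64-fold higher. In RNA from whole heads, fewer cells of a type and less RNA per cell cannot be told apart, and this holds for every group below.

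Scaling sets the zero of every difference. The arrays were alike in overall level, with median intensities of 91.1 in xMLTK-MO, 89.8 in xSox6-MO and 92.7 in CoMO, and in the 3′ to 5′ ratio of the gapdh control probe sets, a measure of RNA integrity, at 1.99 in xMLTK-MO, 2.16 in xSox6-MO and 1.85 in CoMO. The hybridisation controls, spiked into the labelled cRNA, were a median of 0.10 lower on the xMLTK-MO array, and the poly-A controls, spiked into the RNA, differed by a median of -0.27. Centring on them would add 0.10 or 0.26 to every difference and would bring the share of higher genes among those past 2-fold to 78.9% or 90.9%, so higher and lower below mean relative to the other genes of the array. A group median between -0.26 and 0 turns above 0 when centred on the poly-A controls, which holds for ER-associated degradation, secretory transport, cytosolic chaperones, the proteasome, collagen and glycosaminoglycan enzymes, fast sarcomere, fatty acid oxidation, redox, heme and lens genes.

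Transcripts of the kinase cascade itself lay close to the background, while those of AP-1 and immediate early genes were higher. Of 16 measured stress MAPK cascade kinase genes all passed the level filter and 0 were 1.5-fold higher or lower, with a median of 0.081 and a range of -0.15 to 0.29. The sister MAP3K gene map3k7.L (TAK1) was at 394 in xMLTK-MO, 418 in xSox6-MO and 335 in CoMO. The kinases that phosphorylate JNK, map2k4.L and map2k7.L, differed by 0.25 and -0.061, and the JNK gene mapk8.L by -0.069. The p38 genes mapk11.S and mapk14.S differed by 0.24 and -0.11, and mapkapk2.L, a kinase activated by p38, by -0.17. The ERK cascade, the growth-factor branch, had a median of 0.15 over 9 genes, with map2k1.L (MEK1) at 0.25 and the adaptor gene grb2.S at -0.34.

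Of 24 measured AP-1 and immediate early genes, 22 passed the filter, 21 of these were higher, 10 at least 1.5-fold and 3 at least 2-fold, against 47.4%, 4.35% and 1.5% of all genes. Their median was 0.52 in xMLTK-MO and 0.24 in xSox6-MO. fos.S, a partner of the JUN proteins in AP-1, was at 593 in xMLTK-MO, 237 in xSox6-MO and 124 in CoMO. junb.L was at 509 in xMLTK-MO, 262 in xSox6-MO and 138 in CoMO. Its homeolog junb.S was at 81.2 in xMLTK-MO, 56.03 in xSox6-MO and 42.9 in CoMO. For these genes xMLTK-MO was highest and CoMO lowest, and the same order held for jun.L, at 541 in xMLTK-MO, 384 in xSox6-MO and 275 in CoMO. atf3.L, a stress-induced factor that pairs with JUN, stood at 161 in xMLTK-MO but at 82.4 in xSox6-MO and 83.4 in CoMO. ier2.L and ier2.S, early response genes, differed by 1.28 and 0.81, klf10.L and klf10.S, transcription factors of the TGF-beta early response, by 1.01 and 0.99, and myc.L by 0.84. The antiproliferative gene btg2.S differed by 0.82. The only member lower than in CoMO was klf2.S, a flow-responsive factor of endothelium, at -0.45.

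The phosphatases and Sprouty-type inhibitors that shut MAP kinases off were also higher. All 8 of the 9 measured genes that passed the filter were above CoMO, 1 of them at least 1.5-fold (background 47.4% and 4.35%). Their median was 0.33 in xMLTK-MO and 0.086 in xSox6-MO. dusp6.L and dusp6.S, which dephosphorylate ERK, were at 391 and 451 in xMLTK-MO, at 353 and 401 in xSox6-MO, and at 228 and 232 in CoMO. dusp1.L, which acts on JNK and p38, differed by 0.37 in xMLTK-MO and -0.054 in xSox6-MO. dusp14.L and dusp14.S, at 0.45 and 0.71 in xMLTK-MO, were at 0.018 and 0.16 in xSox6-MO. The 2 morphant differences share the CoMO array.

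**Figure D2:**
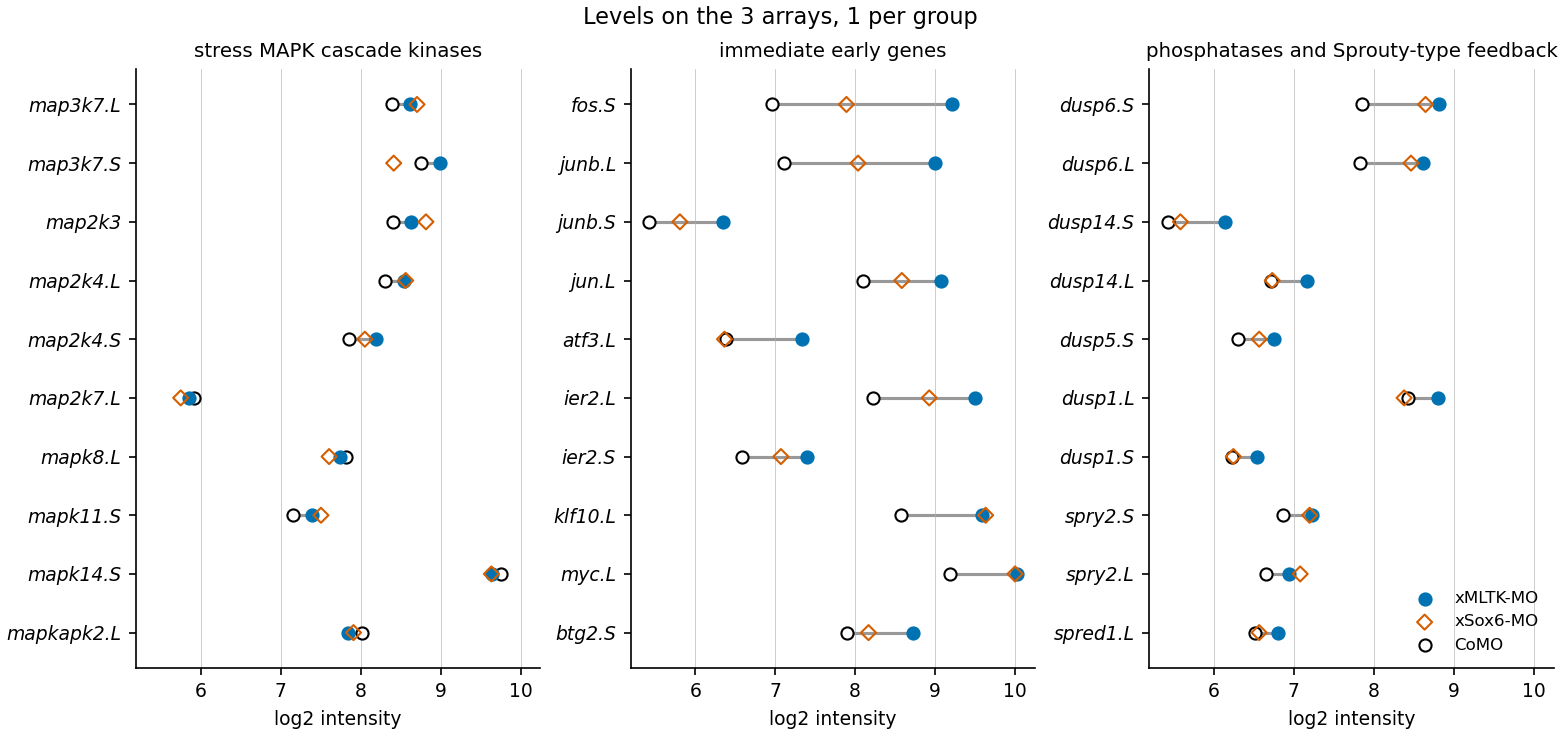
Log2 intensity (horizontal) of 10 genes each of the stress MAPK cascade, the immediate early genes and the MAPK phosphatases with Sprouty-type inhibitors, with 1 array per group; a grey bar joins xMLTK-MO (filled) to CoMO (open circle) and xSox6-MO is an open diamond. The kinases lie at most 0.33 above CoMO, and none further below it than mapkapk2.L at -0.17, whereas fos.S and junb.L lie 2.25 and 1.88 above it.

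Genes of ribosome quality control, the other setting in which the kinase acts, differed little. Of 17 ribosome collision and rescue genes, 11 were higher and 6 lower, 0 by 1.5-fold with homeologs averaged, and the median was 0.11. znf598.S, the ubiquitin ligase that marks collided ribosomes, was at 217 in xMLTK-MO, 202 in xSox6-MO and 137 in CoMO. Its partner in collision sensing edf1.L was at -0.30, the stalled-ribosome splitting factor pelo.L at -0.27 and the recycling ATPase abce1.S at 0.22. The ribosomal proteins themselves had a median of -0.0062 over 71 genes, with 0 past 1.5-fold in either direction.

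Ribosome biogenesis genes, which make and process ribosomal RNA in the nucleolus, stood above CoMO nearly throughout. All 64 measured genes passed the filter and 60 were higher, against 47.4% of all genes. The differences were small: 5 reached 1.5-fold and 0 reached 2-fold (background 4.35% and 1.5%). The median was 0.28 in xMLTK-MO and 0.43 in xSox6-MO. By role, all 16 genes of the small subunit processome were higher, with a median of 0.38, as were all 8 nucleolar DEAD-box helicases (median 0.29), all 5 guide-RNA particle proteins (median 0.28) and all 4 RNA polymerase I subunits (median 0.49). The helicase gene ddx52.S was at 372 in xMLTK-MO, 421 in xSox6-MO and 179.9 in CoMO. ddx52.L was at 431 in xMLTK-MO, 449 in xSox6-MO and 271 in CoMO. The large-subunit assembly factor rpf1.L differed by 0.80, the processome gene wdr75.L by 0.73 and nop58.S, a core protein of methylation-guide particles, by 0.65. rrn3.L, the factor that recruits RNA polymerase I, is not in the list and was at 195 in xMLTK-MO, 347 in xSox6-MO and 97.2 in CoMO. Among the few members below CoMO were the RNA acetyltransferase gene nat10.L at -0.15 and the nucleoplasmin gene npm3.L at -0.14.

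Other translation genes were mixed. Of 45 initiation and elongation factors the median was 0.073, with eif5.S, an initiation GTPase activator, at 0.81 and the poly(A)-binding protein gene pabpc4.L at 0.98. The tRNA synthetases had a median of -0.10 over 20 genes. Among them wars1.L, for tryptophan, was at 79.99 in xMLTK-MO, 233 in xSox6-MO and 159 in CoMO. rars1.S, for arginine, was at 3346 in xMLTK-MO, 1809 in xSox6-MO and 1993 in CoMO. In both the xMLTK-MO array stood apart from the other 2.

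Targets of the integrated stress response, the program of the factor ATF4, did not move as one, with 10 higher and 11 lower of 21 genes and a median of -0.024. Members were found on both sides. ddit3.L (CHOP) was at 293 in xMLTK-MO, 281 in xSox6-MO and 136 in CoMO, atf4.L differed by 0.43 and the nutrient-stress genes sesn2.L and sesn2.S by 0.98 and 0.74. A subgroup of serine, proline and one-carbon enzyme genes was put together after the values were seen. All 5 above the filter, of 7 measured, were below CoMO and 4 at least 1.5-fold (background 3.89%). The subgroup median was -0.65 (xSox6-MO -0.72). phgdh.S, the first enzyme of serine synthesis, was at 102 in xMLTK-MO, 78.72 in xSox6-MO and 181 in CoMO, the folate enzyme gene mthfd2.L differed by -0.67 and the proline synthesis gene aldh18a1.L by -0.61. bcat1.S, a branched-chain aminotransferase, was higher at 85.3 in xMLTK-MO, 48.5 in xSox6-MO and 28.6 in CoMO. Its homeolog bcat1.L was at 1087 in xMLTK-MO, 1069.7 in xSox6-MO and 1316 in CoMO.

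Chaperones of the endoplasmic reticulum, which fold secreted proteins such as collagen, were lower. All 40 measured folding and quality control genes passed the filter, 34 were lower (background 52.6%), 8 at least 1.5-fold and 3 at least 2-fold (background 3.89% and 0.748%), and the median was -0.28, against -0.20 in xSox6-MO. hsp90b1.L, the HSP90 of this compartment, was at 2431 in xMLTK-MO, 2821 in xSox6-MO and 4944 in CoMO. hsp90b1.S was at 1336 in xMLTK-MO, 1511 in xSox6-MO and 2887 in CoMO. The disulfide isomerase gene pdia4.L was at 897 in xMLTK-MO, 1007 in xSox6-MO and 1863 in CoMO. Both morphant arrays lay below CoMO for these genes, and xMLTK-MO was the lower. creld2.L and creld2.S, secretory folding factors, differed by -0.90 and -1.13, sdf2l1.L and sdf2l1.S, parts of the HSPA5 complex, by -0.81 and -0.85, and hspa5.L and hspa5.S (BiP), the HSP70 of the compartment, by -0.46 and -0.46.

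In subgroups by role, put together after the values were seen, all 9 genes of the HSP70 and HSP90 machines were lower (median -0.45). So were 8 of 9 disulfide isomerase genes (median -0.29). The folding list and this subgroup leave out pdia2.L, a disulfide isomerase of pancreas that was higher and is given with the pancreas genes. Of 10 genes of ER-associated degradation 9 were lower (median -0.24), herpud1.S among them at -0.80. The exception in degradation was selenok.S, at 0.52. The regulators of the unfolded protein response that set these genes did not share the pattern as a list. Of 8 above the filter, of 10 measured, 6 were higher and 2 lower, with a median of 0.092. With homeologs averaged they ranged from -0.84 to 1.11, and the transcription factor gene xbp1.L was at -0.25. The translocation and secretory transport genes were lower in 40 of 54, by little (median -0.16), with the retrieval receptor gene kdelr2.L at 1419.9 in xMLTK-MO, 1479 in xSox6-MO and 2274 in CoMO. Centred on the poly-A controls, the median of the folding genes was -0.022.

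Cytosolic chaperones were lower by less. Of 33 such genes above the filter 22 were lower, with a median of -0.18 in xMLTK-MO and -0.011 in xSox6-MO. The HSP110 genes hsph1.L and hsph1.S differed by -0.81 and -0.53, the HSP90 co-chaperones stip1.L, fkbp4.L and ahsa1.L by -0.46, -0.45 and -0.45. All 5 small heat shock protein genes above the filter were lower, with a median of -0.53. hspb1.L was at 145 in xMLTK-MO, 115 in xSox6-MO and 421 in CoMO. hspb7.L, a heart and muscle member, was at 328 in xMLTK-MO, 413 in xSox6-MO and 493 in CoMO. hsp70.L, a heat-inducible HSP70 gene outside the lists, was at 79.7 in xMLTK-MO, 72.996 in xSox6-MO and 152 in CoMO. The proteasome had a median of -0.086 over 43 genes and the TRiC chaperonin with prefoldin -0.11 over 12.

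Genes of cell division were lower on the xMLTK-MO array, and the roles within the cell cycle, grouped after the values were seen, differed. DNA replication genes were lower in 41 of 48 above the filter (53 measured), with a median of -0.31, against 0.0061 in xSox6-MO. Of these, 5 were at least 1.5-fold lower (background 3.89%) and 0 at least 2-fold. All 6 subunit genes of the MCM helicase above the filter were lower, with a median of -0.55. mcm4.L was at 435 in xMLTK-MO, 593 in xSox6-MO and 795 in CoMO. mcm4.S was at 133 in xMLTK-MO, 213 in xSox6-MO and 242 in CoMO. All 5 genes of the helicase partners GINS and CDC45 were lower (median -0.43), with gins4.L at -0.69 and cdc45.L at -0.77. cdc6.L and cdc6.S, which load the helicase, differed by -0.85 and -0.75, while the 6 genes of the origin recognition complex split evenly, with a median of -0.013. The clamp loader RFC had a median of -0.076 over 4 genes, and the polymerases -0.32 over 10. rpa3.S, a subunit of the single-strand binding protein, was at 67.4 in xMLTK-MO, 158 in xSox6-MO and 130.3 in CoMO. The DNA ligase gene lig1.L was at 164 in xMLTK-MO, 275 in xSox6-MO and 267 in CoMO. Both were low only on the xMLTK-MO array.

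The nucleotide synthesis list had 12 genes higher and 10 lower of 22, with a median of 0.033, and divided by step into subgroups put together after the values were seen. All 6 deoxynucleotide enzyme genes above the filter, of 7 measured, were lower, 4 of them at least 1.5-fold (background 3.89%). Their median was -0.76 in xMLTK-MO and -0.36 in xSox6-MO. dut.L, which removes dUTP, was at 167 in xMLTK-MO, 271 in xSox6-MO and 414 in CoMO. The ribonucleotide reductase genes rrm1.L and rrm2.2.L differed by -0.70 and -0.94 and the thymidylate synthase gene tyms.L by -0.83. The p53-inducible reductase subunit rrm2b.S, outside this subgroup, was at 2269 in xMLTK-MO, 5315 in xSox6-MO and 4469 in CoMO, low only on the first. In contrast 9 of 11 enzymes of de novo purine and pyrimidine synthesis were higher, with a median of 0.21. The entry enzyme of purine synthesis ppat.L was at 0.82 and the CTP synthase gene ctps1.S at 0.55.

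Of 35 genes of cyclins, their kinases and regulators, 13 were higher and 22 lower, with a median of -0.12. Subgroups by phase, put together after the values were seen, differed. All 7 genes of CDK1 and its cyclins and small partners above the filter were lower, 4 at least 1.5-fold (background 3.89%), with a median of -0.63. cdk1.L was at 587 in xMLTK-MO, 692 in xSox6-MO and 1031 in CoMO. cdk1.S was at 497 in xMLTK-MO, 619 in xSox6-MO and 866 in CoMO. The B-type cyclin genes ccnb1.2.L and ccnb1.2.S differed by -0.79 and -0.75 and the A-type gene ccna2.L by -0.71. All 4 genes of the D-type cyclins and CDK4 were higher, with a median of 0.45: ccnd1.L was at 3256 in xMLTK-MO, 3173 in xSox6-MO and 2323 in CoMO, and ccnd2.S differed by 0.79. cdc25c.L, the phosphatase that activates CDK1, stood at 583 in xMLTK-MO, 352 in xSox6-MO and 297 in CoMO. Of 3 genes of the E-type cyclins and CDK2, 2 were lower (median -0.53).

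The list of mitotic kinases, spindle and cytokinesis genes had 40 of 44 genes lower and 14 at least 1.5-fold (background 52.6% and 3.89%). The median of this list was -0.50, against -0.30 in xSox6-MO. The kinase genes plk1.S and aurka.L were at 559 and 236 in xMLTK-MO, 639 and 297 in xSox6-MO, and 984 and 414 in CoMO. All 10 mitotic kinesin genes were lower (median -0.58). kif18a.L, which limits microtubule length, was at 30.9 in xMLTK-MO, 66.8 in xSox6-MO and 58.1 in CoMO. Its xMLTK-MO value lay close to that array's highest negative control, 26.2. The cytokinesis scaffold anln.L differed by -0.92, the proliferation marker mki67.S by -0.80, and prc1.2.L, a spindle midzone gene outside the list, was at 63.1 in xMLTK-MO, 113 in xSox6-MO and 161 in CoMO. The anaphase-promoting complex, whose subunits are not made periodically, had a median of -0.064 over 6 genes.

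Of 28 kinetochore and checkpoint genes 26 were lower (background 52.6%), 8 at least 1.5-fold and 2 at least 2-fold (background 3.89% and 0.748%). Their median was -0.37, against -0.021 in xSox6-MO. bub1.L, a checkpoint kinase, was at 168 in xMLTK-MO, 179 in xSox6-MO and 411 in CoMO. cenpa.L, the centromeric histone H3, was at 199.8 in xMLTK-MO, 268 in xSox6-MO and 468 in CoMO. The checkpoint gene mad2l1.S differed by -0.72, its target cdc20.S by -0.94 and ndc80.S, which holds microtubules, by -0.67. In the chromosome structure list all 8 condensin genes were lower, with a median of -0.44, smc4.L at -0.87 and ncapg2.L at -0.72, whereas cohesin and its loaders had a median of -0.061 over 9 genes. top2a.L, the topoisomerase of dividing cells, was at 219.6 in xMLTK-MO, 282 in xSox6-MO and 399 in CoMO. DNA repair genes had a median of -0.042 over 58, and chromatin maintenance genes -0.18 over 32, with the variant histone gene h2az1.S at -0.53 and hmgb2.L at -0.50.

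**Figure D3:**
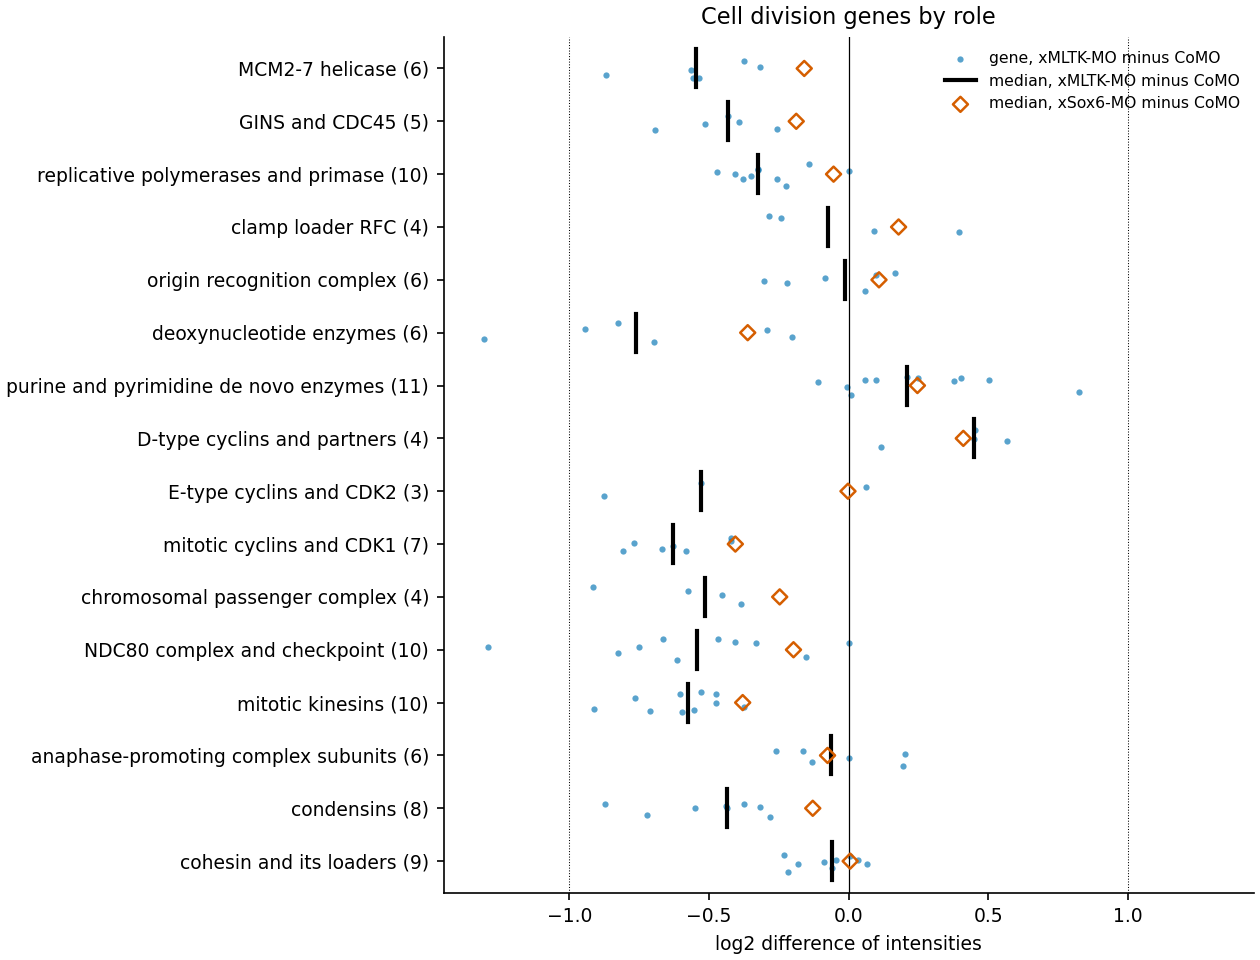
Differences in log2 intensity of cell division genes by role, homeologs averaged, with the number of genes in parentheses. Points are genes and black bars medians of xMLTK-MO minus CoMO, open diamonds are medians of xSox6-MO minus CoMO, and dotted lines mark 2-fold. The medians of D-type cyclins and of purine and pyrimidine de novo enzymes lie above 0. All helicase, deoxynucleotide, mitotic cyclin, kinesin and condensin genes lie below it.

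Growth-arrest genes of the p53 pathway were higher in part. Of 27 p53 target genes above the filter 16 were higher, 9 at least 1.5-fold (background 47.4% and 4.35%). The other 11 were lower, 3 at least 1.5-fold (background 52.6% and 3.89%). The median was 0.20 in xMLTK-MO and 0.066 in xSox6-MO. cdkn1a.L (p21), which blocks cyclin-dependent kinases, was at 127 in xMLTK-MO, 116 in xSox6-MO and 26.6 in CoMO. Its CoMO value lay close to that array's highest negative control, 23.3. The exonuclease gene aen.L was at 485 in xMLTK-MO, 469.7 in xSox6-MO and 194 in CoMO. gadd45a.S and gadd45g.L, which bind cell cycle kinases, differed by 0.73 and 0.80, plk2.S by 0.89 and ccng1.S by 0.84. ccng2.L and ccng2.S, cyclins of quiescent cells, went the other way, at -0.95 and -0.72, as did the autophagy-linked gene ei24.S at -0.84. The p53-inducible reductase gene rrm2b.S, given above, was also lower. With homeologs averaged, the members of the list ranged from -0.98 to 2.25. Among 21 caspase and BCL2 family genes the median was -0.057. The initiator caspase gene casp9.S differed by -0.77 and its platform apaf1.L by -0.47. xiap.L, an inhibitor of caspases, was at 139.8 in xMLTK-MO, 81.5 in xSox6-MO and 68.04 in CoMO.

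Cartilage matrix genes were lower, and the enzymes that modify matrix much less so. Of 15 measured cartilage matrix genes 12 passed the filter and 10 were lower (background 52.6%). Of these 5 were at least 1.5-fold and 3 at least 2-fold lower (background 3.89% and 0.748%). The median was -0.45 in xMLTK-MO and -0.85 in xSox6-MO. The 3 that did not pass were matn1, matn2 and prg4. Of these matn1.L (matrilin 1), left out because its level over the 3 arrays was low, was at 8.997 in xMLTK-MO, 5.02 in xSox6-MO and 107 in CoMO and so at least 4.1002-fold lower. cnmd.L (chondromodulin), which keeps vessels out of cartilage, was at 1336 in xMLTK-MO, 1015 in xSox6-MO and 2247 in CoMO. The small proteoglycan gene epyc.S was at 825 in xMLTK-MO, 649 in xSox6-MO and 1330.3 in CoMO. For both genes xSox6-MO was the lowest array.

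Of 20 collagen biosynthesis genes 13 were lower (median -0.11). serpinh1.S and serpinh1.L (HSP47), the chaperone for procollagen, were at 574 and 139 in xMLTK-MO, 579.9 and 139 in xSox6-MO, and 1053 and 220.2 in CoMO. The crosslinking enzyme gene lox.L was at 34.5 in xMLTK-MO, 23.5 in xSox6-MO and 68.7 in CoMO, while loxl2.L differed by 0.58 and the lysyl hydroxylase gene plod3.L by 0.51. Glycosaminoglycan genes were lower in 19 of 27, with a median of -0.14. papss2.S, which makes the sulfate donor for cartilage proteoglycans, was at 433 in xMLTK-MO, 372 in xSox6-MO and 771 in CoMO. ugdh.L, which makes a sugar precursor, was at 175 in xMLTK-MO, 87.4 in xSox6-MO and 219 in CoMO, lowest in xSox6-MO. Fibrous connective tissue genes had a median of -0.04 over 26, in which aspn.L (asporin) was an exception, at 15.6 in xMLTK-MO, 14.9 in xSox6-MO and 83.7 in CoMO. With its xMLTK-MO value not above the negative controls, it was at least 3.20-fold lower. Of 6 measured basement membrane genes 4 passed, with a median of -0.29.

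Genes of matrix proteases and of their inhibitors, counted as one list, were higher for the most part. Of 21 such genes above the filter, of 25 measured, 16 were higher, 7 at least 1.5-fold and 3 at least 2-fold. The background was 47.4%, 4.35% and 1.5%, and the median of the list was 0.25. This median lay at the threshold of 0.25, and between 0.17 and 0.25 with the median level filter, the pseudocount, the brightest probe set, and without the largest or the shared members. mmp1.S, a collagenase, was at 94.1 in xMLTK-MO, 62.5 in xSox6-MO and 26.1 in CoMO, the last close to that array's highest negative control (23.3). mmp13.S, another collagenase, was at 56.3 in xMLTK-MO, 53.03 in xSox6-MO and 14.9 in CoMO, at least 2.42-fold higher, since its CoMO value was not above the negative controls. plat.L, the plasminogen activator, was at 280.0 in xMLTK-MO, 218 in xSox6-MO and 118 in CoMO. serpine2.L, an inhibitor of such proteases, was at 469.6 in xMLTK-MO, 267 in xSox6-MO and 244 in CoMO. timp-1.L, an inhibitor of matrix metalloproteases outside the list, was at 451 in xMLTK-MO, 182 in xSox6-MO and 167 in CoMO. For these inhibitors only the xMLTK-MO array was high. mmp3.L (stromelysin) went the other way, at 214 in xMLTK-MO, 341 in xSox6-MO and 363 in CoMO.

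The regulators of cartilage and of the arches were near the background. Chondrogenic regulators had 14 genes higher and 13 lower of 27, with a median of 0.004 and a range of -0.93 to 0.59. Neural crest and arch genes were higher in 22 of 34, with a median of 0.11. The member furthest from CoMO was a lower one, at -0.88 with homeologs averaged, while the highest was at 0.85. Among the higher members were genes of the ventral arch. hand2.L and hand2.S were at 309 and 556 in xMLTK-MO, 320.2 and 509.7 in xSox6-MO, and 200.4 and 293 in CoMO. msx1.L and msx1.S differed by 0.84 and 0.85. The growth factor receptor gene fgfr3.L, which restrains growing cartilage in mammals, was at 234 in xMLTK-MO, 251 in xSox6-MO and 344 in CoMO.

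Signalling pathways differed modestly and by role. In the FGF pathway 16 of 22 genes were higher (median 0.24): the ligands fgf8.L and fgf20.L differed by 0.68 and 0.94 and the targets dusp6.L and etv4.L by 0.78 and 0.38, while the receptors fgfr3.L and fgfr4.L were at -0.55 and -0.31. In the Wnt pathway 34 of 49 genes were higher (median 0.14), with 8 of 9 ligands higher (median 0.39) and frizzled receptors split, 4 of 8. The secretion factor wls.S was at 1660.1 in xMLTK-MO, 1253 in xSox6-MO and 976 in CoMO, the ligand wnt3a.S differed by 0.83 and the antagonist dkk1.S by 0.98. The median of the BMP and TGF-beta pathway was 0.037 over 39 genes, of which 24 were higher and 15 lower. With homeologs averaged its members ranged from -0.93 to 0.88. Among the higher were the antagonists fst.L and bambi.L at 0.88 and 0.74 and the ligand tgfb1.L at 0.65. Medians were 0.095 over 8 Hedgehog genes and 0.029 over 23 Notch genes, the Notch target hes1.S differing by 0.99. Among targets of YAP and of the actin-responsive factor SRF (median 0.049 over 27), ccn2.L and ccn1.S, matricellular proteins, differed by 0.76 and 0.63 in xMLTK-MO, and by 0.33 and 0.024 in xSox6-MO. In the thyroid hormone group, dio1.L, a deiodinase, was at 12.99 in xMLTK-MO, 66.2 in xSox6-MO and 41.9 in CoMO, at least 1.6001-fold lower, and the receptor gene thra.L differed by -0.69. The retinoid-degrading enzymes cyp26a1.L and cyp26c1.S differed by 0.76 and 0.83.

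Slow and cardiac-type sarcomere genes were lower as a list, and fast skeletal ones lay nearer to CoMO. The division was not clean, since 6 slow and cardiac-type genes were higher. Skeletal actin and several scaffold genes, given below, were lower. Of 20 genes of the slow and cardiac-type list above the filter 14 were lower. Of these 10 were at least 1.5-fold and 7 at least 2-fold lower (background 3.89% and 0.748%). The median was -0.59 in xMLTK-MO and -0.60 in xSox6-MO. The list also holds nppb, a heart hormone gene and not a sarcomere gene, which is among the 6 higher. Fast skeletal sarcomere genes were lower in 12 of 22, 1 at least 1.5-fold, with a median of -0.12. The troponins, which make contraction depend on calcium, show the difference between these lists. The slow troponin I gene tnni1.S was at 683 in xMLTK-MO, 484 in xSox6-MO and 1569 in CoMO. tnni1.2.L was at 209 in xMLTK-MO, 221 in xSox6-MO and 979 in CoMO. The slow and cardiac troponin C genes tnnc1.L and tnnc1.S were at 824 and 557 in xMLTK-MO and 1177 and 1386 in CoMO. The fast genes tnni2.S, tnnc2.L and tnnt3.S differed by 0.035, -0.40 and 0.42. The heart troponin I genes tnni3.L and tnni3.S were slightly higher, at 0.27 and 0.29.

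Other slow and cardiac-type genes were lower on both morphant arrays. myl2.S, the slow and ventricular regulatory light chain, was at 1786 in xMLTK-MO, 1385 in xSox6-MO and 5489 in CoMO. The heavy chain gene myh6.S was at 1200.3 in xMLTK-MO, 1303 in xSox6-MO and 2664 in CoMO. The light chain gene myl3.L was at 1505 in xMLTK-MO, 1539 in xSox6-MO and 2961 in CoMO. The calcium pump gene atp2a2.S differed by -1.03 and the calcineurin-binding genes myoz2.L and myoz2.S by -1.23 and -1.01. The heart hormone gene nppb.L went the other way, at 349 in xMLTK-MO, 303 in xSox6-MO and 127 in CoMO. Of 27 scaffold and assembly genes 18 were lower (median -0.29). klhl40.S, klhl41.L and klhl41.S, which protect thin filament proteins, differed by -1.23, -1.16 and -1.16, the thin filament cap gene tmod4.L by -0.91 and the myosin chaperone partner smyd1.L by -0.69. mustn1.L, cav3.2.S and cavin4.S, muscle genes outside the lists, differed by -1.18, -1.09 and -1.06. pdlim3.L, an actin-binding scaffold, was higher only on the xMLTK-MO array, at 172, against 95.5 in xSox6-MO and 102 in CoMO.

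Muscle and heart regulators were higher in 15 of 20 genes above the filter (23 measured), 7 at least 1.5-fold (background 47.4% and 4.35%). The median of the list was 0.34. The median was under 0.25 with no level filter (0.11), with values raised to the controls (0.20), with the brightest probe set (0.22), with the pseudocount (0.23) and without the largest member (0.24). The early myogenic factors myod1.L and myod1.S were at 128 and 130.2 in xMLTK-MO, 157 and 115 in xSox6-MO, and 70.8 and 67.8 in CoMO. myog.S was at 577 in xMLTK-MO, 868 in xSox6-MO and 291 in CoMO. The late factor myf6 was lower, with myf6.L and myf6.S at -0.72 and -0.87. All 3 heart and endoderm GATA genes were higher: gata5.L was at 362 in xMLTK-MO, 269 in xSox6-MO and 114 in CoMO, gata6.L differed by 1.21 and gata4.L by 0.59. The heart field gene tbx5.L was at 112 in xMLTK-MO, 101 in xSox6-MO and 54.2 in CoMO.

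**Figure D4:**
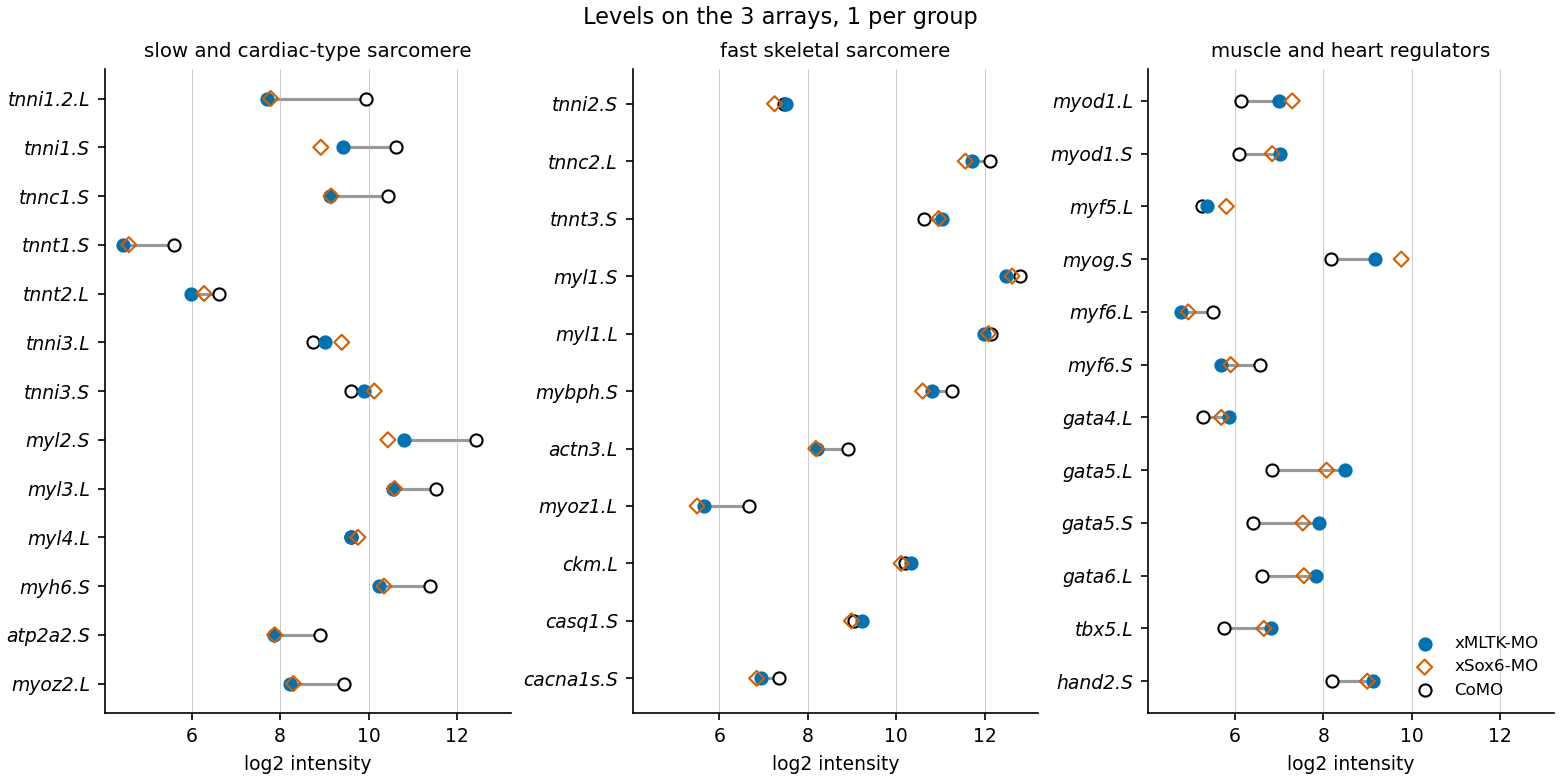
Log2 intensity (horizontal) of slow and cardiac-type sarcomere genes, fast sarcomere genes and muscle and heart regulators, with 1 array per group; a grey bar joins xMLTK-MO (filled) to CoMO (open circle), and xSox6-MO is an open diamond. In the first panel xMLTK-MO lies left of CoMO for 10 of the 13 genes, and in the third it lies right of CoMO except for the myf6 homeologs.

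Energy metabolism differed little. Medians were -0.026 over 61 respiratory chain genes, -0.021 over 48 mitochondrial ribosome genes, -0.091 over 23 genes of the tricarboxylic acid cycle and 0.018 over 21 of glycolysis. Fatty acid oxidation genes were lower in 22 of 29 (median -0.11), with the thiolase gene acaa2.L at 501 in xMLTK-MO, 507 in xSox6-MO and 909 in CoMO and the muscle carnitine enzyme cpt1b.L at -0.68. Lipid synthesis had a median of -0.019, with the desaturases scd.S and fads2.L at -0.88 and -0.71. Cholesterol synthesis had a median of -0.12 in xMLTK-MO and -0.42 in xSox6-MO over 18 genes. Glutathione and redox genes were lower in 32 of 45 (median -0.16). Glutathione transferases split, with 5 of 10 higher and a median of -0.03. Those furthest below CoMO, gsta4.S and gsta1.S, were at 102 and 780.0 in xMLTK-MO, 105 and 905 in xSox6-MO, and 318 and 1609 in CoMO.

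The list of gluconeogenesis and amino acid breakdown had 16 genes higher and 22 lower of 38, 4 and 4 by at least 1.5-fold (background 4.35% and 3.89%). The median of the list was -0.11. Within it tyrosine breakdown was lower at several steps, 4 of 5 enzyme genes with a median of -0.78. hpd.L, the second enzyme, was at 173 in xMLTK-MO, 249 in xSox6-MO and 427 in CoMO. fah.L, the last, was at 245 in xMLTK-MO, 202 in xSox6-MO and 422 in CoMO. tat.S, the first, was at 14.6 in xMLTK-MO, 18.8 in xSox6-MO and 69.9 in CoMO and so at least 2.67-fold lower. Single members were higher. sds.L (serine dehydratase) was at 241 in xMLTK-MO, 215 in xSox6-MO and 33.9 in CoMO. g6pc1.1.L (glucose-6-phosphatase) was at 127 in xMLTK-MO, 184 in xSox6-MO and 45.9 in CoMO. Over 29 heme and red cell genes the median was -0.16, with the first enzyme of heme synthesis in red cells, alas2.L, at 75.99 in xMLTK-MO, 115 in xSox6-MO and 194 in CoMO. Clock genes were higher in 10 of 14 (median 0.28, xSox6-MO 0.02), and the median was 0.056 above a median level filter, 0.21 with the pseudocount, 0.23 raised to the controls and 0.24 with homeologs as separate genes. bhlhe40.L, a clock repressor, was at 192 in xMLTK-MO, 135 in xSox6-MO and 84.3 in CoMO. nr1d1.L, another, was at 78.4 in xMLTK-MO, 48.9 in xSox6-MO and 41.04 in CoMO. aanat.L, the melatonin enzyme, was at 70.8 in xMLTK-MO, 36.2 in xSox6-MO and 37.8 in CoMO. The hour of collection is not given for each group.

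Endodermal organs differed: the measurable genes of exocrine pancreas and stomach were higher, while those of endocrine pancreas, liver and gut lay nearer to CoMO as lists. Of 26 exocrine pancreas genes only 11 passed the filter, and these were all above CoMO, 8 at least 2-fold (background 1.5%). A gene passing through its high array alone had to differ, and over all 26, with no level filter, the median was 0.24. The 15 genes below the filter give no measured difference. The summed intensity of the 26 was 3979 in xMLTK-MO, 1328 in xSox6-MO and 881 in CoMO. ptf1a, the factor that specifies acinar cells, was at 89.7 in xMLTK-MO, 48.8 in xSox6-MO and 33.6 in CoMO. serpini2.L, a pancreatic serpin outside the list, was at 89.3 in xMLTK-MO, 37.8 in xSox6-MO and 13.4 in CoMO and so at least 3.84-fold higher. The 5 largest differences of the list were those of digestive enzymes and of one folding protein. cela1.1.S (elastase) was at 1342 in xMLTK-MO, 245 in xSox6-MO and 89.6 in CoMO, ctrc.L and ctrl.L (chymotrypsin family) at 3.25 and 2.83, cel.2.S (a lipase) at 2.96 and pdia2.L, a disulfide isomerase of pancreas, at 3.23. Among endocrine genes (median 0.10 over 14, 10 higher and 4 lower), the insulin genes ins.S and ins.L were at 245 and 175 in xMLTK-MO, 128 and 79.4 in xSox6-MO, and 11.4 and 12.3 in CoMO, at least 10.5-fold and 7.54-fold higher.

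All 3 stomach genes above the filter, of 4 measured, were higher, and these 3 were put together after their values were seen. Only 2 of the 4 exceeded the negative controls of the CoMO array. A gene as dim in CoMO as atp4a.S could pass the filter only through a higher morphant array, so its direction carried little weight. Over all 4, with values raised to the controls, the median was 2.37. atp4a.S, the acid-secreting proton pump, was at 385 in xMLTK-MO, 117 in xSox6-MO and 10.2 in CoMO, at least 16.5-fold higher. The gastric protease genes ctse.L and ctse.S were at 1384 and 214 in xMLTK-MO, 769 and 76.8 in xSox6-MO, and 232 and 34.1 in CoMO. The claudin gene cldn18.L was at 327 in xMLTK-MO, 229 in xSox6-MO and 75.1 in CoMO. The gut epithelium list, which holds ctse too, had 11 genes higher and 4 lower of 15 above the filter (22 measured), with a median of 0.25 in xMLTK-MO and -0.031 in xSox6-MO. Its summed intensity was 4754 in xMLTK-MO, 4852 in xSox6-MO and 5147 in CoMO. The intestinal fatty acid binding protein gene fabp2.L was at 317 in xMLTK-MO, 104 in xSox6-MO and 126 in CoMO. rbp2.L, the intestinal retinol carrier, was at 221 in xMLTK-MO, 65.5 in xSox6-MO and 98.8 in CoMO. These last 2 were high on the xMLTK-MO array alone. Proteins secreted by the liver had a median of 0.10 over 30 of 32 genes, 20 higher and 10 lower and 0 of them 1.5-fold higher, with prothrombin f2.L at 0.52 and serpina1.S at -0.54. The drug-metabolising cytochrome gene cyp3a4.2.L was at 701 in xMLTK-MO, 339.6 in xSox6-MO and 127 in CoMO. The trunk marker slc5a2.L was higher with these genes, as given above, and the summed intensity of the trunk list was also highest in xMLTK-MO and lowest in CoMO. The posterior Hox and caudal genes were below the filter. Their part in the result was not tested.

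Complement genes, of innate immunity, were higher in 14 of 15 that passed the filter, of 20 measured. Of these 10 were at least 1.5-fold and 5 at least 2-fold higher, against 4.35% and 1.5% of all genes. Their median was 0.87 in xMLTK-MO and 0.28 in xSox6-MO, and 0.45 in xMLTK-MO over all measured genes raised to the controls. The pore-forming genes c7.S and c9.L were at 836 and 1730.1 in xMLTK-MO, 539 and 1057 in xSox6-MO, and 358 and 503 in CoMO. c3.L, the central component, was at 799 in xMLTK-MO, 519 in xSox6-MO and 323 in CoMO. c4a.L, of the classical pathway, was at 92.2 in xMLTK-MO, against 35.5 in xSox6-MO and 27.97 in CoMO, the last close to that array's highest negative control (23.3). clu.L (clusterin), which restrains the pore, was at 287 in xMLTK-MO, 127 in xSox6-MO and 60.5 in CoMO. For each, xMLTK-MO was the highest array.

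Cytokine genes differed singly. The list had a median of 0.09 over 28 genes, 4 at least 2-fold higher (background 1.5%). socs3.L and socs3.S, inhibitors of cytokine receptors, were at 120.3 and 152 in xMLTK-MO, 59.7 and 63.1 in xSox6-MO, and 36.3 and 47.7 in CoMO. ptgs2.S, the prostaglandin enzyme, was at 225 in xMLTK-MO, 187 in xSox6-MO and 103 in CoMO. The neutrophil attractant cxcl8.L was at 164 in xMLTK-MO, 217 in xSox6-MO and 54.7 in CoMO. Interferon genes had a median of 0.078 over 9.

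The myeloid list had 14 of 19 genes higher, 3 at least 2-fold (background 47.4% and 1.5%). The median of this list was 0.31, or 0.17 with no level filter. Subgroups by function were put together after the values were seen, and the granule subgroup also holds genes from outside this list. All 6 granule protein genes above the filter, of 7 measured, were higher, 5 at least 2-fold (background 1.5%). Their median was 1.63 in xMLTK-MO and 1.58 in xSox6-MO. Only 5 of the 7 exceeded the negative controls of the CoMO array. Over all 7, with values raised to the controls, the xMLTK-MO median was 1.37. Since these genes were chosen with their values known, their counts carry little weight against the background. prtn3.L (proteinase 3) was at 142 in xMLTK-MO, 124 in xSox6-MO and 33.7 in CoMO. epx.L (a peroxidase) was at 281 in xMLTK-MO, 307 in xSox6-MO and 85.4 in CoMO. mmp9.1.S (gelatinase B) was at 143 in xMLTK-MO, 114 in xSox6-MO and 25.5 in CoMO, the last close to that array's highest negative control (23.3). The cytoskeletal and signalling genes common to white cells had 5 of 7 lower and a median of -0.28, lcp1.S at -0.39 and rac2.L at -0.11.

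Skin surface and nerve genes were near the background as lists, and the gland list was not. Medians were -0.10 over 11 keratins, -0.05 over 31 junction genes, 0.083 over 47 genes of ciliated cells and -0.053 over 24 of mucus and ion-transporting cells. Those of nerve were -0.055 over 38 neuronal, -0.03 over 33 synaptic and -0.0031 over 35 progenitor and glial genes. With homeologs averaged, the 11 keratins of the list ranged from -0.81 to 1.07. Of these 0 were at least 2-fold lower and 1 at least 2-fold higher (background 0.748% and 1.5%). As a single homeolog, krt62.L was at 1259 in xMLTK-MO, 1651 in xSox6-MO and 3578 in CoMO. krt18.1.S, a keratin of simple epithelia, was at 720.5 in xMLTK-MO, 355 in xSox6-MO and 267 in CoMO. The ammonium transporter gene rhbg.S of ionocytes was at 63.9 in xMLTK-MO, 85.4 in xSox6-MO and 154 in CoMO. Neurofilament genes were higher, nefl.L and nefm.L at 0.80 and 0.65, and stmn1.L, a microtubule regulator of growing neurons and dividing cells, was at -0.79. The cement and hatching gland list had 5 genes higher and 2 lower of 7, 4 at least 2-fold higher (background 1.5%). Its median was 1.54, but 0.17 with homeologs as separate genes and 0.86 without its largest member. Its secreted cement gland genes ag1.L and ag1.S differed by -0.50 and -1.16, while the hatching enzyme gene astl3a.1.L was at 2279 in xMLTK-MO, 1709.9 in xSox6-MO and 175 in CoMO. crisp1.5.S, a cysteine-rich secretory protein gene, was at 899 in xMLTK-MO, 889.9 in xSox6-MO and 111 in CoMO, and both morphant arrays stood well above CoMO for these 2.

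Photoreceptor and retina genes were lower in 21 of 32 (median -0.094). Rod and cone genes, put into subgroups after the values were seen, differed in direction. Of 7 rod phototransduction genes above the filter 6 were lower, with a median of -0.44 in xMLTK-MO and -0.45 in xSox6-MO. Cone genes had 4 of 6 higher and a median of 0.18 in xMLTK-MO, against -0.73 in xSox6-MO. arr3.L, cone arrestin, was at 4609 in xMLTK-MO, 2302 in xSox6-MO and 3487 in CoMO. sag.L, rod arrestin, was at 812 in xMLTK-MO, 516 in xSox6-MO and 1208 in CoMO. Visual cycle genes of the pigment epithelium split, with 3 of 6 higher and 3 lower and a median of 0.029. With homeologs averaged they ranged from -0.74 to 0.45. The lowest was rpe65, with rpe65.L and rpe65.S at 546 and 159 in xMLTK-MO, 857 and 262 in xSox6-MO, and 961 and 253 in CoMO. All 5 melanosome genes above the filter were lower in xMLTK-MO (median -0.30) and had a median of 0.36 in xSox6-MO. tyrp1.L, a melanin enzyme, was at 1592 in xMLTK-MO, 2779 in xSox6-MO and 2259 in CoMO. The transporter slc45a2.L was at 87.3 in xMLTK-MO, 156 in xSox6-MO and 135 in CoMO. Lens genes were lower in 12 of 13, with a median of -0.18 in xMLTK-MO and -0.50 in xSox6-MO. The crystallin gene crygbl.4.S was at 1826 in xMLTK-MO, 195 in xSox6-MO and 5722 in CoMO.

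Across the lists, 85 of 86 had at least 5 genes above the filter, 9 of them had a median of -0.25 or below and 11 a median of 0.25 or above. The lower lists were those of slow and cardiac sarcomere, small heat shock proteins, mitosis, cartilage matrix, kinetochore, replication, sarcomere scaffold, ER folding and chromosome structure. Centred on the hybridisation controls, replication, sarcomere scaffold, ER folding and chromosome structure were no longer at -0.25 or below, and on the poly-A controls slow and cardiac sarcomere and small heat shock proteins alone were. Sarcomere scaffold was at -0.20 with the brightest probe set, and small heat shock proteins at -0.12 without members shared with other lists. The higher ones were exocrine pancreas, cement and hatching gland, complement, immediate early genes, trunk markers, myogenic regulators, MAPK feedback, myeloid cells, ribosome biogenesis, clock and matrix proteases. The exocrine pancreas, trunk marker and cement and hatching gland medians rest on few genes and on dim ones, and with no level filter the medians of the exocrine pancreas and trunk lists were 0.24 and 0.16. The cement and hatching gland median was 0.17 with homeologs as separate genes. Some list medians not given above also lay near CoMO. They were -0.031 for bone and mineral, 0.0036 for urea cycle and polyamines, 0.078 for mitochondrial carriers and 0.048 for hypoxia targets. Those of autophagy and lysosome, neuropeptides, retinoic acid and thyroid hormone, and reference genes were -0.057, 0.068, 0.046 and -0.11. Pigment cell genes were lower in 10 of 12 (background 52.6%), with a median of -0.21 in xMLTK-MO and 0.25 in xSox6-MO. Spliceosome genes, the longest of the lists that stayed near 0, had a median of 0.029 over 94.

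**Figure D5:**
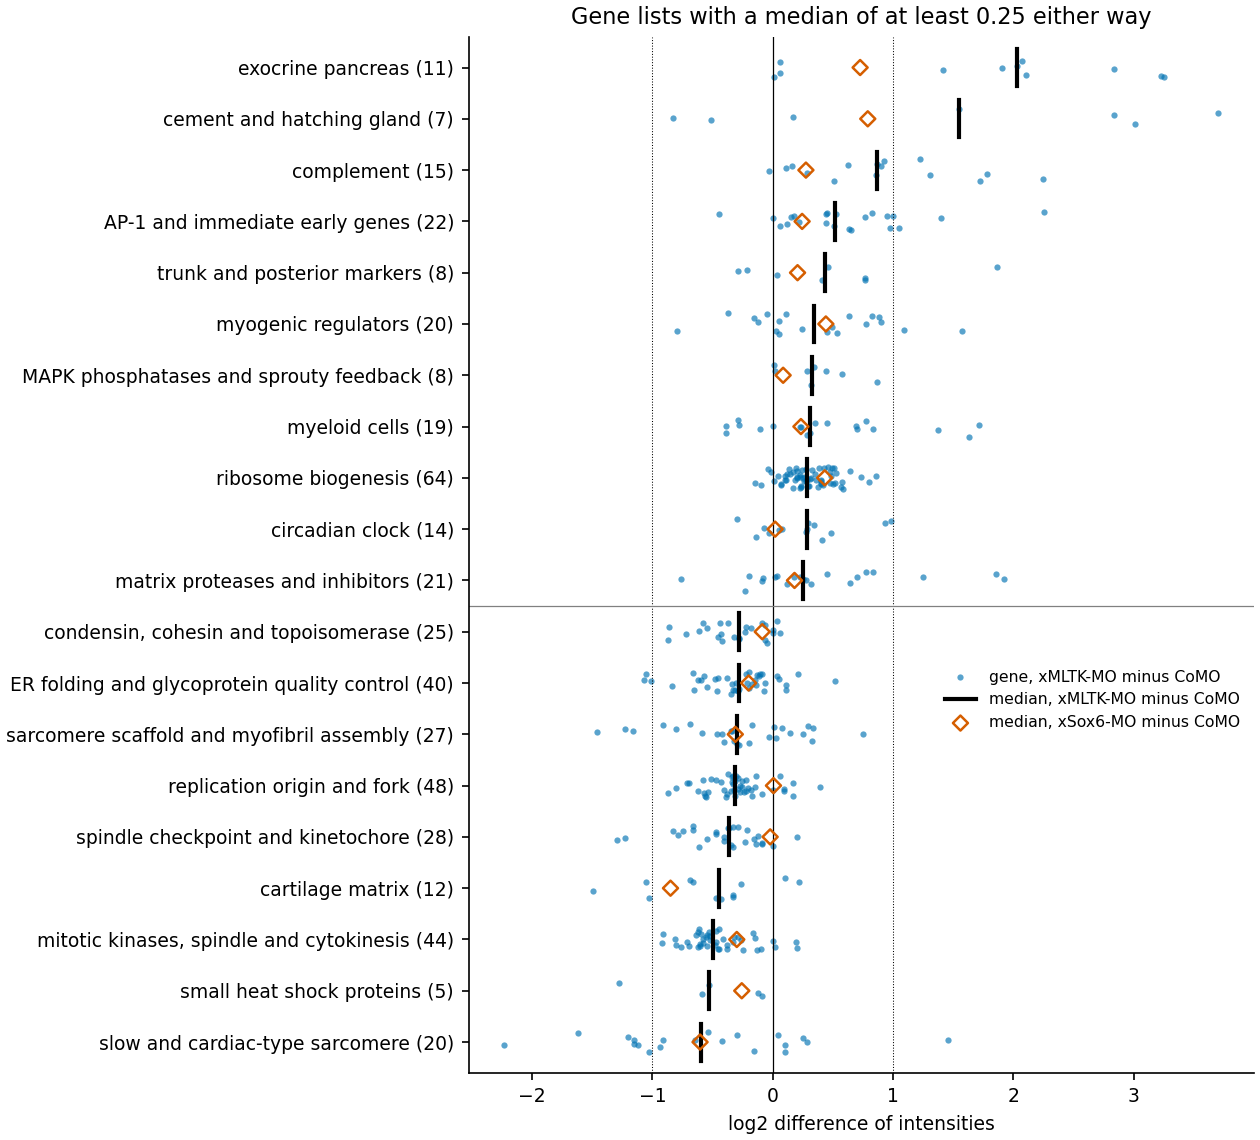
Differences in log2 intensity for the 20 lists with a median of at least 0.25 either way, homeologs averaged, with the number of genes above the level filter in parentheses. Points are genes and black bars medians of xMLTK-MO minus CoMO, open diamonds are medians of xSox6-MO minus CoMO, and dotted lines mark 2-fold; for replication and kinetochore genes the xSox6-MO median lies at 0.0061 and -0.021, and for cartilage matrix it lies further from 0 than that of xMLTK-MO.

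Of the 15 genes furthest above CoMO, some belonged to no list. c1qtnf9b.L, a secreted C1q and TNF-related protein, was at 475 in xMLTK-MO, 296 in xSox6-MO and 7.45 in CoMO, at least 20.4-fold higher. angpt4.S, an angiopoietin, was at 58.7 in xMLTK-MO, 27.8 in xSox6-MO and 9.74 in CoMO and at least 2.52-fold higher. Further genes over 2-fold higher were outside the lists as well. phlda2.L, a growth regulator, was at 691 in xMLTK-MO, 348 in xSox6-MO and 166 in CoMO. tcn2.S (transcobalamin, a vitamin B12 carrier) was at 277 in xMLTK-MO, 87.7 in xSox6-MO and 68.3 in CoMO. igfbp1.L, which binds insulin-like growth factors, was at 209.9 in xMLTK-MO, 134 in xSox6-MO and 77.1 in CoMO. tcn2.S was high on the xMLTK-MO array only.

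Of the 15 genes furthest below CoMO, dao.L, a D-amino acid oxidase, was at 14.97 in xMLTK-MO, 41.4 in xSox6-MO and 51.4 in CoMO and at least 1.96-fold lower, and smim11a.L, a small membrane protein, at 50.5 in xMLTK-MO, 135 in xSox6-MO and 236 in CoMO. erlin2.L, which helps remove receptors from the endoplasmic reticulum, was at 268 in xMLTK-MO, 293 in xSox6-MO and 839 in CoMO. otos.L (otospiralin) was at 103 in xMLTK-MO, 112 in xSox6-MO and 344 in CoMO. acta1.S, skeletal actin, was at 43.0 in xMLTK-MO, 49.5 in xSox6-MO and 118 in CoMO. LOC733334, a gene with no name in the annotation, was at 23.7 in xMLTK-MO, 48.5 in xSox6-MO and 65.9 in CoMO and at least 2.52-fold lower. Beyond the 15, chid1.L, a chitinase domain protein, was low on the xMLTK-MO array only, at 149, against 383 in xSox6-MO and 381 in CoMO. Lower than on either other array were also chmp1b.S, of the membrane scission complex ESCRT-III, at 211 in xMLTK-MO, 409 in xSox6-MO and 563 in CoMO, and sri.S (sorcin), a calcium-binding protein, at 2517 in xMLTK-MO, 5215 in xSox6-MO and 5273 in CoMO.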

How the data were processed

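Total RNA from heads of 3 groups was hybridised to 1 array each of an Affymetrix GeneChip for X. laevis, a 1-colour design with biotin label. The deposited values are 1 intensity per probe set and array on a linear scale, made by the authors with RMA, which background-corrects, quantile-normalises and summarises probes, per the submitters' processing notes. No version is given there, and whether a further scaling was applied is not stated. RMA makes the arrays alike in their distribution, so differences are relative to the other genes, and it draws dim and extreme values together.

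From these values log2 was taken with no pseudocount, the probe sets with 1 platform symbol (15495) were averaged per symbol on the log2 scale, and the CoMO value was subtracted. Several symbols (279 probe sets) or none (16765) kept a probe set out of the gene counts. Of the 15495, 15384 matched current RefSeq gene names by identifier, 2 symbols changed and 111 were kept as annotated. Genes whose mean log2 level over the 3 arrays was at least 4.55 (intensity 23.4, from the highest of 23 negative control probe sets per array) were counted. A gene not above that array's highest negative control (26.2 in xMLTK-MO, 21.0 in xSox6-MO, 23.3 in CoMO) is given only as a bound, the brighter value over the control. Depth has no counterpart in intensities, and 1 array per group limits the precision.

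Gene lists (86) and smaller role groups (53) come from general knowledge, and they and the members were chosen with earlier results of these data known; the role groups were put together after the values were seen. Genes named are the 15 furthest from CoMO each way, in each list those past 2-fold or otherwise up to the 6 largest, their homeologs and members whose role is described, with further genes chosen after their values were seen; not every gene this covers is printed. Only the counting at 2-fold was tested on simulated data, with planted differences well past 2-fold and less noise than between probe sets here. Alternatives were other level filters, the brightest probe set, centring on control probe sets or array medians, a repeated quantile normalisation, values raised to the controls, a pseudocount of 16, homeologs apart, and lists without their largest or shared members. Python 3.11.15 was used with numpy 2.4.6, pandas 2.3.3 and matplotlib 3.10.9. No sequence is printed here, and no genome was used.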

Additional observations from a re-analysis of the deposited data

Results flagged for a closer look

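Probe sets that carry no gene symbol lie outside the comparisons above. Of 10805 such probe sets above the level filter, 127 were at least 2-fold higher in xMLTK-MO (1.18%) and 86 at least 2-fold lower (0.796%), with differences between -3.91 and 5.37 and a median of -0.025. They were noted because a signal was present in values that the gene counts do not use.

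A control probe set for the 3′ end of ef1a, a translation elongation factor of the host, was also outside the gene counts. It was at 745 in xMLTK-MO, 344 in xSox6-MO and 427 in CoMO, a log2 difference of 0.80 between xMLTK-MO and CoMO.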

How the results depend on the processing

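Of the lists with at least 5 genes, 11 had a median of 0.25 or above. This number was 7 with no level filter and 41 when centred on the poly-A controls. The 9 lists with a median of -0.25 or below became 5 when centred on the hybridisation controls and 2 on the poly-A controls. The 148 genes at least 2-fold higher became 93 above a median level filter and 300 on the poly-A controls, and the 80 at least 2-fold lower became 30 on the poly-A controls. Among the alternatives run, none turned a called list median round. Of 86 list medians, 86 moved by over 0.15 with poly-A centring, 6 with each other level filter, 8 without members shared with other lists, 3 with values raised to the controls, 2 with the pseudocount, 2 without the largest member, and 1 each with the brightest probe set and with homeologs apart; the cause was not tested. Exocrine pancreas was at 0.24 with no filter and small heat shock proteins at -0.12 without shared members. Signal over background limits the dim genes. No paired analysis was possible because each group had 1 array.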
